A study of Mus musculus with 53 samples.

Results

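The DNA replication genes described here are 43 genes of the machinery that copies chromosomes, chosen by name, with 1 array probe set per gene, that of highest mean. Of the 43, 41 could be read from a probe set assigned to a single gene, out of 12394 genes measured in all. Gins2 and Chaf1a were not analysed here. All 41 were brighter than the median of the array on at least 3 arrays, the filter that kept 9157 genes for testing, and no member was lost to it. By role they are 14 genes of origin licensing, 4 of helicase activation, 7 of polymerases and primase, 6 of the sliding clamp and its loader, 5 of Okazaki fragment maturation and single-strand binding, 4 of nucleotide supply and 1 of chromatin assembly.

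Replication starts where the origin recognition complex (the ORC proteins), with Cdc6 and Cdt1, loads the ring-shaped MCM2-7 helicase onto DNA, a step that geminin (Gmnn) blocks outside the licensing window. Mcm10, Cdc45 and the GINS complex turn the loaded ring into a moving helicase, primase and polymerase alpha start each strand, and PCNA, loaded by replication factor C (the Rfc proteins), holds polymerases delta and epsilon on the template. Many of these genes are transcribed as cells leave G1, under E2F transcription factors, so their RNA is widely used as a sign of cycling cells. Thymocytes and T-cell lymphomas hold many dividing cells.

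RNA was measured on 53 oligonucleotide arrays of mouse T-cell lymphoblast tumours, all of strain C57BL/6 and untreated, from 15 genetic backgrounds. TLX1 transgenic mice gave 6 tumours, labelled TLX1 positive, and mice with the TLX1 transgene that were also RUNX heterozygous gave 6, here called crossed tumours, which are labelled TLX1 negative. The Cdkn2a knockout with retroviral insertional mutagenesis gave 9. There were 3 tumours each from beta-catenin, LMO1, Nup98HoxD13, ThPOK, Tal1-LMO2 double and Olig with LMO1 double transgenic mice (the Olig gene is olig2 in titles and olig1 in the genotype), from p53 knockout mice and from Ikaros Plastic mice. E2A knockout, rag E2A knockout, Tal1 transgenic and Pokemon transgenic mice gave 2 each. The promoters of the transgenes, the ages of the mice and whether tumours of a background came from separate animals are not given in the sources used here, so p-values measure the spread between samples, which may be technical.

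The values are log2 of the deposited normalized intensities. Bacterial control probe sets divide the arrays into a largest set of 38 arrays from 13 backgrounds, a set of 8 that holds the 6 TLX1 arrays and p53 knockout replicates 1 and 2, a set of the 6 crossed arrays and a lone array, Tal1-LMO2 replicate 2. Backgrounds were therefore first compared inside the largest set. Of 9 T-lineage markers measured (11 listed, such as Cd3e, Lck and Thy1), 6 exceeded the array median on every array of that set. On p53 knockout replicate 2, 6 of the 9 (Cd3g, Cd3d, Cd5, Lat, Cd28 and Bcl11b) did not, and the summed level of 8 stroma and endothelium markers was 15.87 (log2) against a range of 11.45 to 14.35 in the largest set.

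The RefSeq promoter table used here (build GRCm38.p6) holds 34 of the members, and 7 of these (20.6%: Orc1, Cdc6, Mcm5, Mcm6, Mcm7, Pola1 and Rfc3) have an E2F word within 250 bases before a start site. The words searched were TTTCCCGC, TTTCGCGC, TTTGCCGC and TTTGGCGC, on both strands, overlapping matches included. Of all 27025 genes with a promoter there, 2.16% hold one. The CCAAT box, searched as CCAAT on both strands, was found in 22 of the 34 (64.7%) and in 37.5% of all genes. The promoters printed here belong to members whose values the comparisons turn on. They are Cdc6 and Mcm5, low in ThPOK tumours, Mcm6, with the most E2F words, Rfc3, low in beta-catenin and in TLX1 tumours, and Tyms. Tyms was higher in ThPOK tumours while others were lower. Like most members with a promoter it has none of the words, and neither have Mcm2 and Cdt1, which were lower there. Each promoter is written 5′ to 3′ on the strand of its gene, with E2F words in capitals.
Cdc6, chr11:98907901-98908150 (plus strand): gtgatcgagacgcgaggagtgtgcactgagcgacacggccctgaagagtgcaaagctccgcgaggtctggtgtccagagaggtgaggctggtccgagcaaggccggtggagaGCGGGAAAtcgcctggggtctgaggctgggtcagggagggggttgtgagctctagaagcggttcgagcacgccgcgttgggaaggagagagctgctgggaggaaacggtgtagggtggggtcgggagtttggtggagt
Mcm5, chr8:75109259-75109508 (plus strand): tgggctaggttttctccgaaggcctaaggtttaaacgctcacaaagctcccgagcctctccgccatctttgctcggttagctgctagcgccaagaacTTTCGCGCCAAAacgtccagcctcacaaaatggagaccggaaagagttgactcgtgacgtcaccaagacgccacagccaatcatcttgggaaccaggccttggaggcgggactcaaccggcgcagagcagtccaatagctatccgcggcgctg
Mcm6, chr1:128359706-128359955 (minus strand): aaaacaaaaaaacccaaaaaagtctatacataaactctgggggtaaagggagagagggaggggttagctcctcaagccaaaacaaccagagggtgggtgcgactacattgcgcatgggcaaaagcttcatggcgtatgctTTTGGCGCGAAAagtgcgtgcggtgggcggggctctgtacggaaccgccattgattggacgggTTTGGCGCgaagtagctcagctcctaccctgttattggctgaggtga
Rfc3, chr5:151651209-151651458 (minus strand): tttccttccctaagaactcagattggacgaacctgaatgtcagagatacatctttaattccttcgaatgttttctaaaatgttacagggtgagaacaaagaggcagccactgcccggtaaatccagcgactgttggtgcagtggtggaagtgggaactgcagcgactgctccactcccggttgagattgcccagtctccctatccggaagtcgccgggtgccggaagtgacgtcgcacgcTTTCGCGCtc
Tyms, chr5:30073626-30073875 (minus strand): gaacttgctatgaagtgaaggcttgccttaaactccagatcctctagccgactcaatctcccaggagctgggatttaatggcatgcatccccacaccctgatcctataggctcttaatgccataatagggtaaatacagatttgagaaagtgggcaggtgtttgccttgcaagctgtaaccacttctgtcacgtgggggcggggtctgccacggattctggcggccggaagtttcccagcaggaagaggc
The E2F words of Mcm5 overlap in a single stretch, and Mcm6 has such a stretch and a further word nearer the start site. A match describes these letters only.

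The members' mean, taken over the 41 genes after each was centred on its own mean over 53 arrays, ran from -1.15 (log2) to 0.43, with a median of 0.10. It was lowest in p53 knockout tumours, whose 3 arrays read -0.10, -1.15 and 0.08, so that this place rests on replicate 2, the array on which most T-lineage markers did not exceed the array median. Ikaros Plastic tumours came next, at 0.12, -0.84 and -0.23, and on replicate 2 of these 40 of 41 members were below their own mean. ThPOK tumours read -0.32, -0.08 and -0.35 and beta-catenin tumours -0.15, -0.20 and -0.39, with every array below 0. The highest means belonged to Tal1-LMO2 tumours (0.28, 0.30 and 0.43) and Tal1 tumours (0.37 and 0.24), followed by Nup98HoxD13 (0.33, 0.18 and 0.23), Olig with LMO1 (0.14, 0.26 and 0.28), E2A knockout (0.35 and 0.10), Pokemon (0.25 and 0.17) and rag E2A knockout (0.06 and 0.35). The 3 LMO1 tumours read -0.04, 0.20 and -0.03, the 6 TLX1 tumours ran from -0.48 to 0.11 and the 6 crossed tumours from -0.39 to 0.20, both with a median of -0.06. The 9 Cdkn2a knockout tumours ran from -0.43 to 0.22 with a median of 0.14, and the lowest of them is the array titled for Pim1 and Ccnd3. Neighbouring backgrounds in this order overlap in their arrays, while all arrays of the Tal1-LMO2, Tal1, Nup98HoxD13, Olig with LMO1, E2A knockout, Pokemon, rag E2A knockout and LMO1 groups lie above all arrays of the ThPOK and beta-catenin groups.

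**Figure D1:**
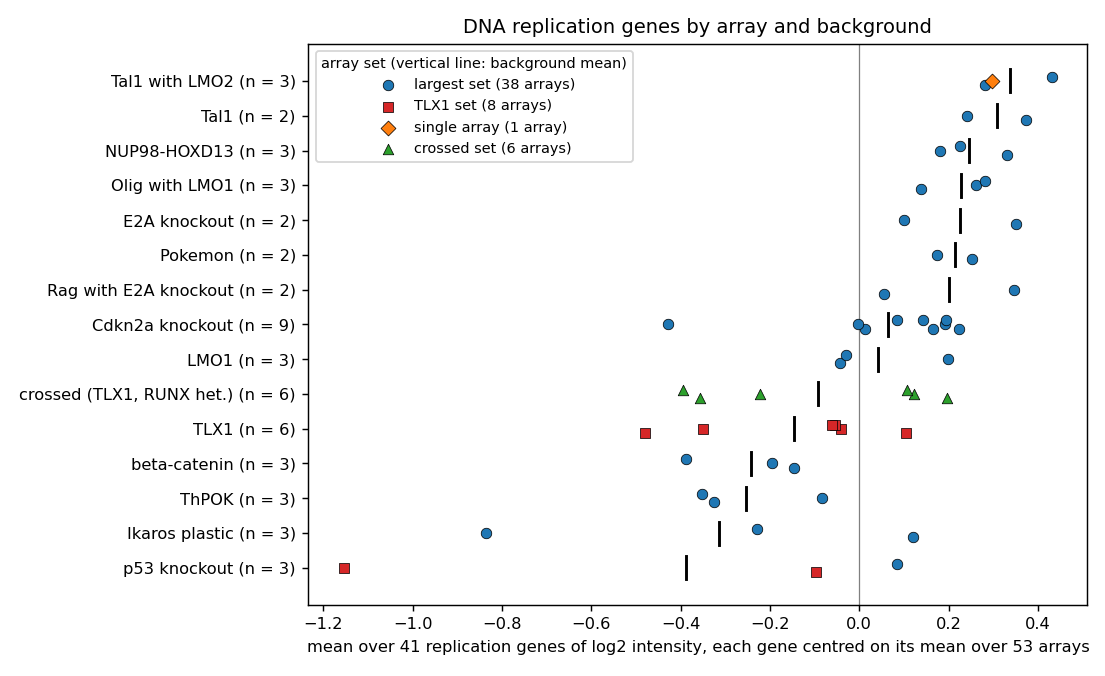
Mean of the 41 replication genes (x axis, log2, each gene centred over 53 arrays) on every array, with backgrounds on the y axis in order of their mean (black line) and symbols for the array set. Single low arrays, at -1.15 in p53 knockout and -0.84 in Ikaros Plastic tumours, pull down their background's mean, while the ThPOK and beta-catenin arrays lie together between -0.39 and -0.08.

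In bulk tumour RNA, fewer cycling cells and less replication RNA per cell cannot be told apart. Within the largest set the members' mean also moved with what the arrays share: its Pearson r over 38 arrays was -0.675 with the array's median log2 intensity, 0.343 with the beta-actin ratio (log2 signal of its 3′ over its 5′ probe set, a sign of RNA degradation), -0.519 with the summed level of 10 myeloid markers, -0.425 with that of the B-cell markers, -0.371 with that of the stroma and endothelium markers, -0.163 with that of the erythroid markers and 0.141 with that of the T-lineage markers. These are descriptions. Fits that hold the beta-actin ratio, or arrays centred on their median, are given beside the backgrounds whose counts they moved, and the part of the marker sums was not tested.

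Across the 13 backgrounds of the largest set, 33 of 41 members differed (limma's moderated F test, Benjamini-Hochberg adjustment over 9157 genes, adjusted p under 0.05). That is 80.5%, and of all genes 78.1% did, so a member was about as likely to differ as any gene. The largest F values belonged to Chaf1b (7.57, adjusted p = 2.36e-05), a subunit of the chromatin assembly factor that deposits histones behind the fork, the thymidine salvage kinase gene Tk1 (7.08, adjusted p = 4.12e-05) and the primase subunit gene Prim2 (6.57, adjusted p = 7.44e-05). The members that did not pass were Lig1, Mcm3, Mcm7, Orc4, Orc6, Pold1, Rpa3 and Rrm2, with adjusted p from 0.0527 for Orc4 to 0.757 for Pold1. Over all 15 backgrounds and 53 arrays 35 of 41 members passed, against 89.2% of genes, and array set and background cannot be told apart there for the crossed tumours.

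**Figure D2:**
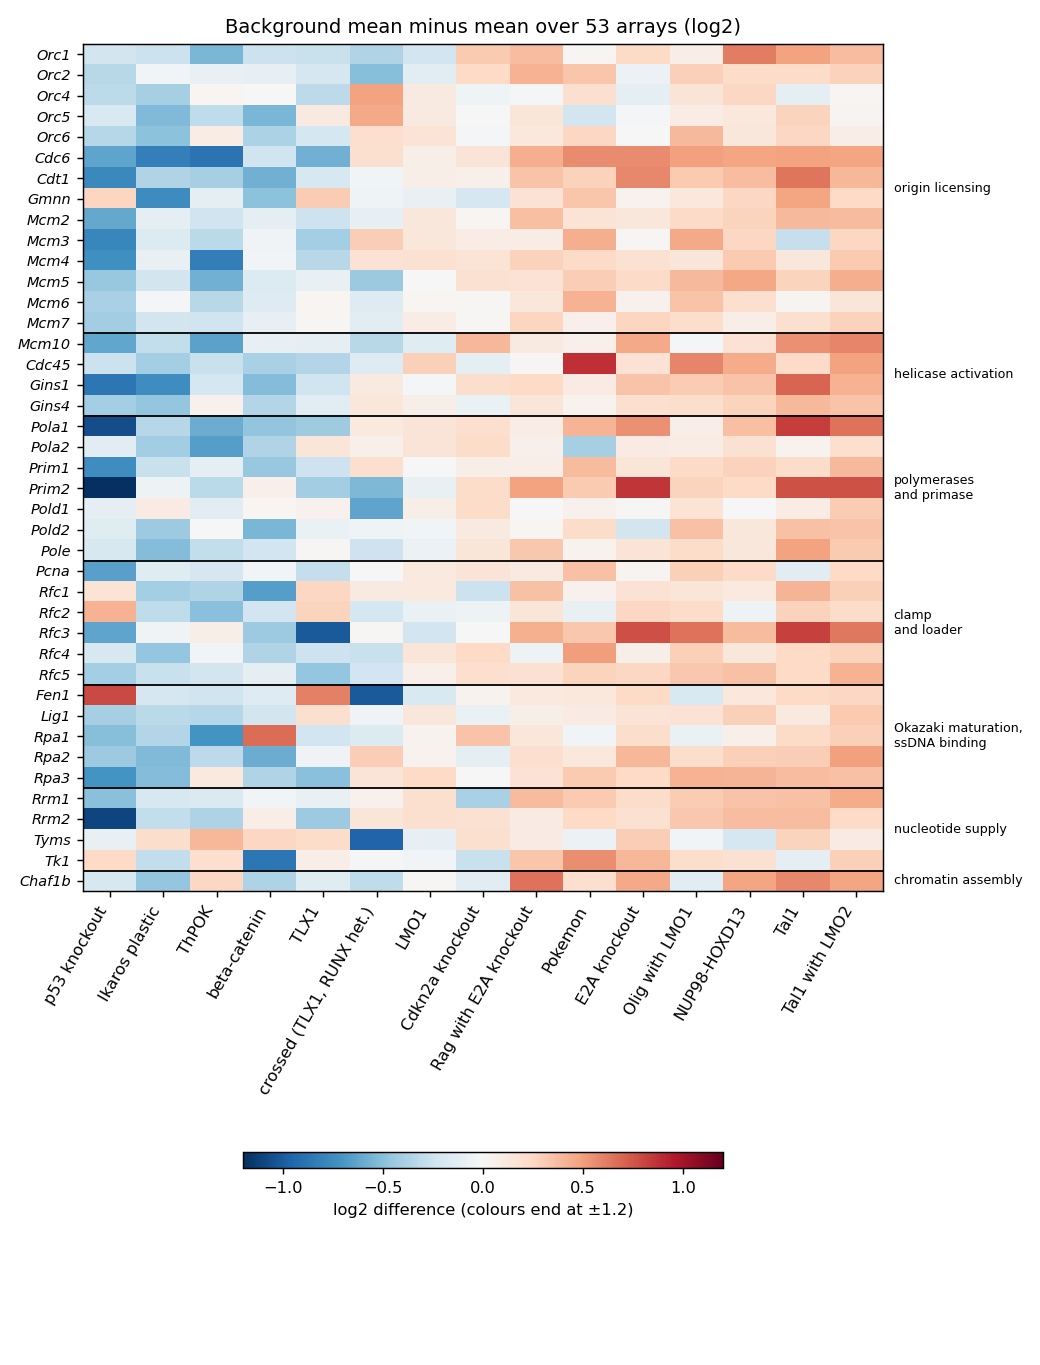
Mean log2 intensity of each replication gene (rows, by role) in each background (columns, ordered by the members' mean), minus its mean over 53 arrays, with red higher and blue lower. Most rows turn from blue to red from left to right, a rise that the column order, taken from these same values, builds in on average. Tyms and Fen1 are lowest in the crossed tumours, at means of 8.30 and 11.07 before subtraction.

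Each background of the largest set with at least 2 arrays there was then set against the other backgrounds of the set, each weighted equally by its mean, as 12 contrasts of a single fit. In sum over these, 73 of 492 member tests were called lower (14.8%) and 11 higher (2.24%), against 9.37% and 10.8% of the tests of all genes. With the beta-actin ratio in the model 48 were lower, and the share of all genes in that fit is not given. The ThPOK, beta-catenin and Ikaros Plastic contrasts held most of the lower calls. These contrasts share the arrays they are set against, so the members' values are given side by side and not as independent results.

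ThPOK tumours, from mice with the transgene for a zinc-finger factor that directs CD4 lineage choice, had lower RNA for 21 of 41 members and higher RNA for 1, against 12% of all genes lower and 23.1% higher. The members' median difference was -0.37 (log2), with 36 of 41 below 0, against 0.06 for all genes. The largest drops were those of the licensing genes Cdc6 and Mcm4, while licensing as a role did not lead. Its median difference was -0.39, against -0.43 for polymerases and primase and -0.41 for helicase activation. Cdc6, the loader of the helicase, read 9.56, 10.03 and 9.38 on the 3 ThPOK arrays, while the other 35 arrays of the set ran from 8.89 to 11.54 with a median of 10.92. It fell by 1.13 ± 0.24 (SE), a 2.19-fold difference (adjusted p = 0.000626), and 4 of the 35 arrays lay below the highest ThPOK array. Mcm4, a subunit of the helicase ring, read 11.01, 11.02 and 10.77. The other arrays ran from 11.02 to 12.32, so that none lay below the ThPOK arrays, and the difference was -0.98 ± 0.16 (adjusted p = 4.89e-05).

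Of the 6 ring subunits, Mcm2 (-0.37 ± 0.12), Mcm4, Mcm5 (-0.74 ± 0.16, with 11.26, 11.46 and 11.02 on its arrays), Mcm6 (-0.43 ± 0.13) and Mcm7 (-0.34 ± 0.13) passed the test in ThPOK tumours. Mcm3 did not, at -0.40 ± 0.20 (adjusted p = 0.11); among its other probe sets those of mean log2 11.15, 10.92 and 10.52 read -0.31, -0.73 and -0.74, and the dimmest read 0.27. Orc1, an ATP-binding subunit of the origin recognition complex, read 8.57, 8.60 and 8.44 and fell by 0.71 ± 0.15 (adjusted p = 0.000889). Its partners Orc2 (-0.24), Orc4 (-0.02) and Orc6 (0.03) did not pass. Among 7 polymerase and primase genes 4 fell: Pola1 (-0.74 ± 0.21) and Pola2 (-0.64 ± 0.18), subunits of polymerase alpha, Prim2 (-0.57 ± 0.16) and Pole (-0.43 ± 0.17), the catalytic subunit of polymerase epsilon. Mcm10, which acts at helicase activation, read 9.47, 9.93 and 9.41 and fell by 0.78 ± 0.16 (adjusted p = 0.000612). Its dimmer probe set, of mean 8.23, read 0.51 in the opposite direction, and the second probe set of Pola2 read 0.04.

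Rpa1, the large subunit of the protein that coats single-stranded DNA, was read at 11.81, 11.91 and 11.61 in ThPOK tumours, and 1 of the other 35 arrays lay below these. It fell by 0.83 ± 0.16 (adjusted p = 0.000216), and its second probe set read -0.64. Tyms, the gene for thymidylate synthase, was the only member to rise, by 0.30 ± 0.09 (adjusted p = 0.00916), with ThPOK arrays at 9.58, 9.88 and 9.53. A second probe set of Tyms read 0.63 and the third, dimmest one -0.05. By role, 8 of 14 licensing, 2 of 4 helicase activation, 4 of 7 polymerase and primase, 4 of 6 clamp and loader, 2 of 5 Okazaki and single-strand binding and 1 of 4 nucleotide supply genes were lower. The remaining calls (Rfc2, Rrm2, Cdt1, Cdc45, Rfc1, Rfc5, Pcna and Fen1) lay between -0.56 and -0.29.

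The count in ThPOK tumours moved with single arrays. It was 10 without ThPOK replicate 1 (7.51% of genes lower), 20 without replicate 2 (7.39%) and 10 without replicate 3 (7.66%). Pola1 lost its call without replicate 1 or 3, and Tyms, at 0.19, without replicate 2. The count was 9 when the contrast was fitted on all 53 arrays (9.03% of genes). With Ikaros Plastic replicate 2 and Cdkn2a knockout replicate 8, the low arrays of the set, left out of the comparison, it was 28 (15.6% of genes). The summed level of the myeloid markers was 14.39 to 14.94 on the ThPOK arrays (largest set: 12.38 to 15.22, median 14.19), with Itgam above the array median on none of them, and that of the T-lineage markers 15.49 to 15.54 (median of the set 15.38). Of the T-lineage markers Cd5 was above the array median on none of the ThPOK arrays. The part of these markers in the result was not tested. The array median log2 intensity was 8.99 to 9.04, and with arrays centred on their median 25 members were lower (18.5% of genes). With the beta-actin ratio in the model 17 were lower (11.2%).

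**Figure D3:**
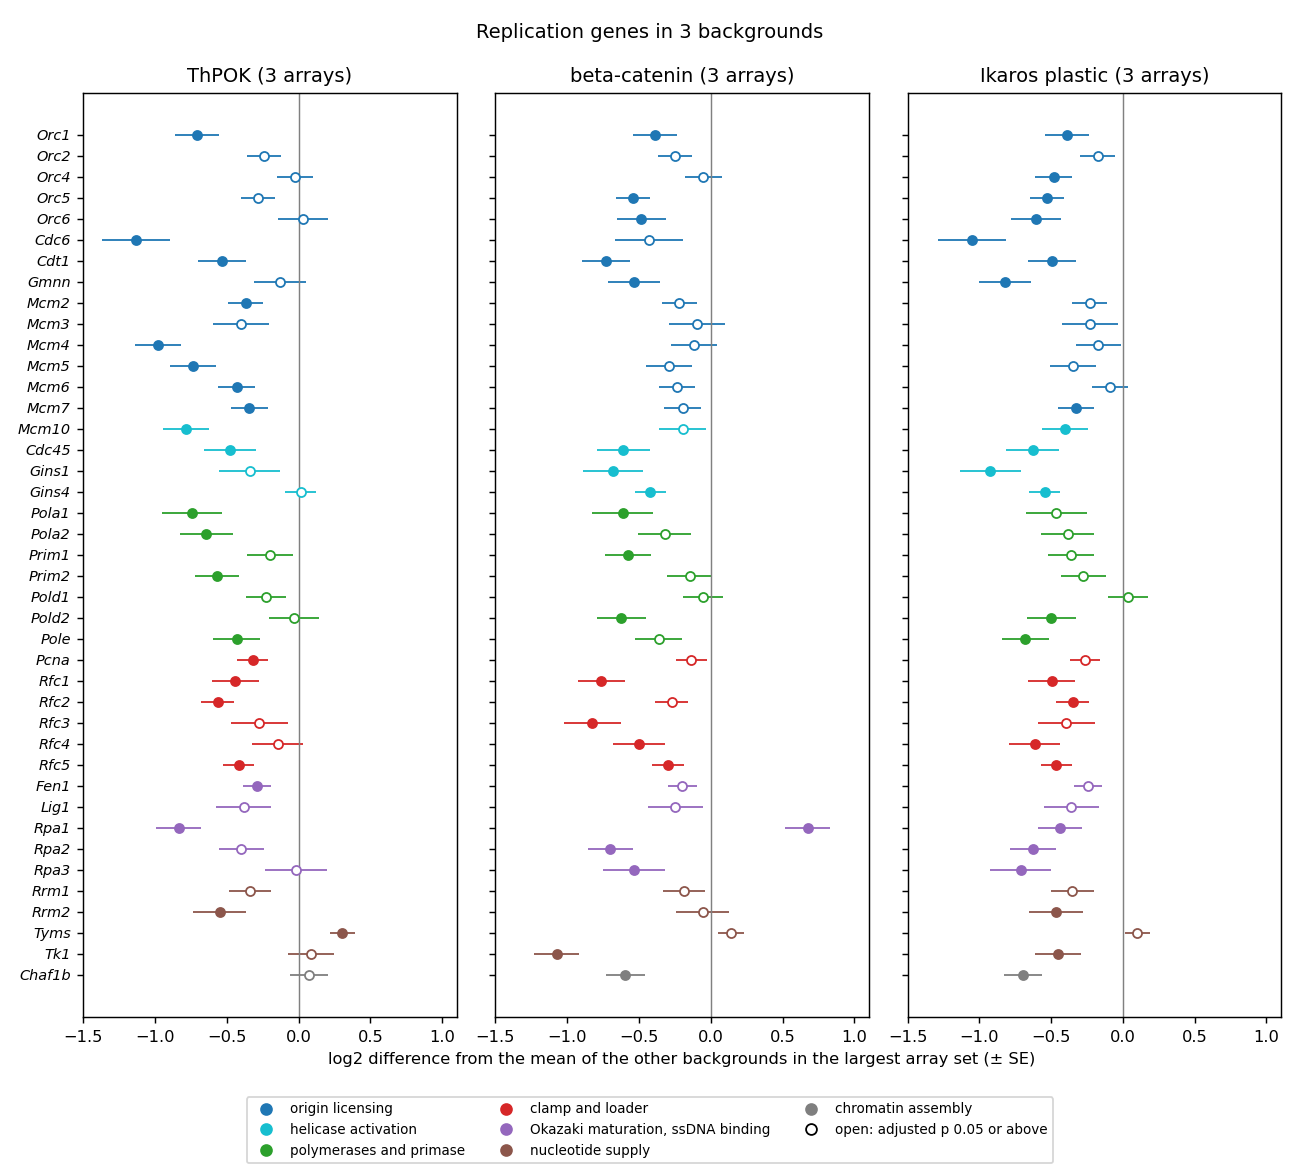
Log2 difference (x axis, ± SE) of the 41 replication genes, by role on the y axis, between 3 tumours of a background and the mean of the other backgrounds in the largest array set. Filled points passed the test: 21 lower and 1 higher in ThPOK, 19 lower and 1 higher in beta-catenin and 24 lower in Ikaros Plastic tumours.

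Beta-catenin tumours carry a transgene for the effector of Wnt signalling. In them 19 of 41 members were lower and 1 higher, against 15.7% of genes lower and 26.2% higher, with a median member difference of -0.32 and 39 of 41 below 0 (median of all genes 0.03). None of the 6 MCM ring subunits passed (differences from -0.29 to -0.10). The lower members were led by Tk1, which read 9.87, 10.25 and 10.07 against 9.91 to 11.82 (median 10.93) on the other 35 arrays. Tk1 fell by 1.07 ± 0.16, 2.11-fold (adjusted p = 5e-06), and 1 of the 35 arrays lay below the highest beta-catenin array.

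The clamp loader followed in beta-catenin tumours, with 4 of 6 clamp and loader genes lower. Rfc3 read 9.54, 9.48 and 9.32 and fell by 0.82 ± 0.20 (adjusted p = 0.00146), with -0.91 by its second probe set. Rfc1, the large subunit of the loader, read 9.78, 10.03 and 9.78 and fell by 0.76 ± 0.16 (adjusted p = 0.0004), while its other probe sets read -0.46 and -0.02. Cdt1, the licensing partner of Cdc6, fell by 0.73 ± 0.17 (11.41, 11.20 and 10.97), Rpa2, the middle subunit of the single-strand binding protein, by 0.70 ± 0.16 (10.20, 10.06 and 10.02), and the GINS subunit gene Gins1 by 0.68 ± 0.21 (10.04, 9.92 and 9.70). Orc5 (-0.54 ± 0.12), Prim1 (-0.57 ± 0.16), Pold2 (-0.62 ± 0.17) and Chaf1b (-0.59 ± 0.13) were also lower, and the remaining calls (Cdc45, Gins4, Gmnn, Orc1, Orc6, Pola1, Rfc4 and Rfc5) lay between -0.61 and -0.30. By role, 5 of 14 licensing, 3 of 4 helicase activation, 3 of 7 polymerase and primase and 1 of 4 nucleotide supply genes were lower.

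Rpa1 stood alone in the other direction. The beta-catenin arrays read 13.12, 13.30 and 13.09, and 32 of the other 35 arrays lay below all of them. The difference was 0.68 ± 0.16 (adjusted p = 0.000892), and the second probe set read 0.80. Its partners Rpa2 and Rpa3 (-0.54 ± 0.21, adjusted p = 0.0454) were lower in the same tumours, so the 3 subunits of this complex did not move together.

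Without beta-catenin replicate 3 the number of lower members was 8 (8.56% of genes), without replicate 1 it was 17 (10.6%) and without replicate 2 it was 16 (11.3%). Gins1 lost its call without replicate 3. With the beta-actin ratio in the model 9 members were lower (10.6% of genes), on all 53 arrays 10 (11.8%), and with arrays centred on their median 30 (31.4%). The beta-actin ratio of these arrays was 0.04 to 0.10 and their median log2 intensity 9.05 to 9.10. Myeloid marker sums were 14.26 to 15.22 and B-cell marker sums 11.80 to 12.63 (6 of 7 listed markers measured, median of the set 11.33), with Pax5 above the array median on none of the arrays. The part of these markers in the result was not tested.

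Ikaros Plastic tumours had 24 of 41 members lower and none higher, against 14.9% of genes lower and 25.1% higher, and a median member difference of -0.44 (all genes 0.05). The arrays differed widely. Cdc6 read 10.30, 8.89 and 10.01 (-1.05 ± 0.24, adjusted p = 0.00104), Gins1 10.41, 8.98 and 9.59 (-0.93 ± 0.21, adjusted p = 0.00123) and Gmnn, the gene for the licensing inhibitor geminin, 11.37, 10.12 and 10.89 (-0.82 ± 0.18, adjusted p = 0.000944). Rpa3 (-0.71 ± 0.21), Chaf1b (-0.69 ± 0.13) and Pole (-0.68 ± 0.17) followed, and of the MCM ring only Mcm7 passed (-0.33 ± 0.13, adjusted p = 0.0435). The probe sets of the called members Cdt1 and Rfc1 lay on both sides of 0. By role, 8 of 14 licensing, all 4 helicase activation, 2 of 7 polymerase and primase, 4 of 6 clamp and loader, 3 of 5 Okazaki and single-strand binding and 2 of 4 nucleotide supply genes were lower. For Cdc6, Gins1 and Gmnn replicate 2 was lowest and lay below every one of the other 35 arrays of the set.

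Without Ikaros Plastic replicate 2 the number of lower members dropped to 2 of 41, against 4.23% of genes, and the median member difference was -0.16. The members left were Chaf1b (-0.50 ± 0.15, adjusted p = 0.0201) and the GINS subunit gene Gins4 (-0.39 ± 0.12, adjusted p = 0.0269). Without replicate 1 it was 38 and without replicate 3 it was 20, with 14.9% of genes in both. With arrays centred on their median it was 36 (28.6% of genes), and with the beta-actin ratio in the model it was 16 (12.2%). Chaf1b read 10.04, 9.08 and 9.25 on the 3 arrays. On replicate 2 the T-lineage sum was 14.72 against 15.68 and 15.78 on the others, with 8 of 9 T-lineage markers above the array median and Cd5 not, and the stroma and endothelium sum was 14.35, the highest of the set. Their part in the result was not tested.

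ThPOK and beta-catenin tumours had similar member means, and a direct contrast of the pair, added after their values were seen, gave 2 members lower and 3 higher in ThPOK tumours, against 13.5% and 11.7% of all genes. Rpa1 was 1.39 ± 0.21 lower in ThPOK than in beta-catenin tumours (adjusted p = 3.36e-05), 2.63-fold, with no overlap of the arrays (11.61 to 11.91 against 13.09 to 13.30). Mcm4 was 0.80 ± 0.21 lower (adjusted p = 0.00697; 10.77 to 11.02 against 11.64 to 11.86). Tk1 was 1.07 ± 0.21 higher in ThPOK tumours (adjusted p = 0.000663; 10.92 to 11.28 against 9.87 to 10.25), Chaf1b 0.62 ± 0.18 higher (adjusted p = 0.0123) and Gins4 0.40 ± 0.15 higher (adjusted p = 0.0432). In all 5 genes the 3 arrays of each group lay apart. Members that did not pass did so too, such as Orc1 (8.44 to 8.60 in ThPOK against 8.72 to 9.01 in beta-catenin tumours) and Gmnn (11.19 to 11.69 against 10.87 to 11.15). The share of all genes that lay apart was not counted. The 5 called genes are 12.2% of the members, a smaller share than that of all genes. The call of Gins4 was lost without any one of the 6 arrays (adjusted p up to 0.109) and that of Chaf1b without beta-catenin replicate 3 (0.0661), while those of Rpa1, Mcm4 and Tk1 held without each of 38 arrays in turn.

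Cdkn2a knockout tumours, which lack an inhibitor locus of the cell cycle and carry retroviral insertions, had 6 members lower and 4 higher, below the 18.7% and 32.7% of all genes. The ribonucleotide reductase gene Rrm1, whose enzyme makes deoxynucleotides, had the strongest call (-0.57 ± 0.09, adjusted p = 1.21e-05), with 9 arrays at 10.65 to 11.55 and a median of 11.35. Tk1 (-0.43 ± 0.10), Rfc3 (-0.34 ± 0.13), Chaf1b (-0.34 ± 0.08), Rfc1 (-0.33 ± 0.10) and Cdc45 (-0.31 ± 0.12) were also lower, and Mcm10 (0.34 ± 0.10), Rpa1 (0.32 ± 0.10), Pola2 (0.31 ± 0.12) and Orc1 (0.23 ± 0.10) higher. The differences are small beside the ranges of single arrays. Without replicate 8, the lowest array of the group, Cdc45 was at -0.20 (adjusted p = 0.1) and Rfc3 lost its call too. Cdc45 also lost it without replicate 3, Rfc3 without replicate 1, Pola2 without replicate 3, 4, 5, 7 or 9, and Orc1 without any one of 24 of the 38 arrays of the set (adjusted p up to 0.117).

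In the other backgrounds of the set few members passed. E2A knockout tumours had 1 higher (2.44% of genes; 2.36% lower, no member) and Tal1 tumours 1 higher (4.08%; 2% lower, no member). In both it was Prim2, at 11.49 and 11.47 in E2A knockout tumours (0.71 ± 0.19, adjusted p = 0.0256) and at 11.47 and 11.31 in Tal1 tumours (0.61 ± 0.19, adjusted p = 0.0485). The E2A knockout call was lost without either of its arrays or p53 knockout replicate 3 (adjusted p up to 0.377), and the Tal1 call without any one of 26 of the 38 arrays, both Tal1 arrays among them (up to 0.401). A background of 2 arrays then has a lone array, which the fit assumes to vary like the other groups. Pokemon tumours had 1 higher member, Cdc45, the helicase cofactor gene (11.28 and 11.00, 0.75 ± 0.22, adjusted p = 0.0438; 1.61% of genes higher, 3.41% lower), a call lost in 13 of the 38 omissions of an array, those of both Pokemon arrays among them. Rag E2A knockout tumours had Chaf1b higher (0.52 ± 0.16, adjusted p = 0.0462; 1.86% of genes higher, 5.7% lower). Without rag E2A knockout replicate 2 this was 0.26 (adjusted p = 0.617), and the call was lost in 19 of the 38 omissions, that of replicate 1 among them. Nup98HoxD13 tumours had Orc1 higher (0.56 ± 0.15, adjusted p = 0.0311; 1.45% of genes) and Tyms lower (-0.35 ± 0.09, adjusted p = 0.0208; 3.45% of genes). Without Nup98HoxD13 replicate 1 Orc1 was at 0.35 (adjusted p = 0.35). Its call was also lost without replicate 3, and that of Tyms without replicate 1 or 2. LMO1 tumours had Rfc3 (-0.59 ± 0.20, adjusted p = 0.0297) and Tyms (-0.24 ± 0.09, adjusted p = 0.0462) lower, against 18.1% of genes lower and 6.15% higher. Both calls were lost without any one of the 3 LMO1 arrays, and that of Tyms in 18 of the 38 omissions in all. No member passed in Olig with LMO1 tumours (4.2% of genes higher, 14.3% lower) or Tal1-LMO2 tumours (0.601% and 1.79%). There 7 and 9 members had an unadjusted p under 0.05 in limma, and the share of all genes at that threshold was not counted. In Tal1-LMO2 tumours 40 of 41 members were nonetheless above 0, with a median difference of 0.29 (all genes -0.03). This was not particular to them. Of 41 members, 3 were below 0 in Nup98HoxD13, 5 in Tal1, 7 in Olig with LMO1 and 7 in rag E2A knockout tumours. In E2A knockout tumours 9 were below 0, in Pokemon tumours 11 and in LMO1 tumours 23. All are set against means that include the low ThPOK, beta-catenin and Ikaros Plastic groups.

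The labels set TLX1-positive tumours beside other lymphomas, and 6 TLX1 arrays were compared with the 41 arrays of the 13 backgrounds without the TLX1 transgene. Of the members 3 were lower and 1 higher, below the 13.2% and 18.8% of all genes, and the median member difference was -0.21 (all genes 0.03). The lower count depended on the probe set rule and on how backgrounds were weighted. It was 9 of 40 with the mean of all probe sets (15.2% of genes). With the probe set of largest interquartile range it was 10 of 40 (18.1%). With the mean of the 13 background means it was 12 of 41 (20%). In these 3 settings the members' share lower was above that of all genes. Rfc3 read 8.26 to 9.50 with a median of 8.90 in TLX1 tumours and fell by 1.15 ± 0.24, 2.22-fold (adjusted p = 0.00023), with -0.46 by its second probe set. The loader subunit gene Rfc5 (-0.57 ± 0.15, adjusted p = 0.0034) and Rpa3, the small subunit of the single-strand binding protein (-0.56 ± 0.20, adjusted p = 0.0316), were also lower. Fen1, the flap nuclease gene of Okazaki fragment maturation, was higher by 0.54 ± 0.15 (adjusted p = 0.00572), with TLX1 arrays at 12.14 to 13.45, but its other probe set read -0.23.

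Against the 2 p53 knockout arrays that share the TLX1 array set, all 4 of these differences had the opposite sign: 0.33 for Rfc3, 0.37 for Rfc5, 0.52 for Rpa3 and -0.50 for Fen1. There Rfc3 read 8.98 and 8.11, Rfc5 10.71 and 9.68 and Rpa3 10.99 and 9.47, inside or below the range of the TLX1 arrays, while Fen1 read 13.16 and 13.19. No gene of the 9157 passed in limma in that contrast, where 6 members had an unadjusted p under 0.05, and the median member difference was 0.47. With array set as a block on all 47 arrays only Rrm2 passed among the members, and it was higher (1.23 ± 0.32, adjusted p = 0.0371; 0.633% of genes were higher and 0.852% lower). With p53 knockout replicate 2 also left out no member passed, none had an unadjusted p under 0.05, the median was -0.06 and Rrm2 read 0.24 ± 0.36. Rfc3, Rfc5 and Rpa3 were then again below 0 (-0.10 ± 0.49, -0.14 ± 0.29 and -0.24 ± 0.42) and Fen1 stayed below it (-0.48 ± 0.31), a comparison that rests on 1 p53 array.

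The comparison of TLX1 tumours with all 13 backgrounds moved with single arrays. Without p53 knockout replicate 2 it gave 13 lower members, without TLX1 replicate 1 it gave 7 and without Ikaros Plastic replicate 2 it gave 6, and without TLX1 replicate 4 or replicate 5 it gave 2. The higher count was 0 without TLX1 replicate 4 or replicate 6, where Fen1 lost its call, and 2 without TLX1 replicate 2. The share of all genes in these fits is not given here, so these counts are not set against it. Rpa3 lost its call without TLX1 replicate 2, 4, 5 or 6. The beta-actin ratio was 0.79 to 2.17 on TLX1 arrays, 1.53 and 1.09 on the 2 p53 arrays and at most 1.08 in the largest set. With it as a covariate no member passed in limma and 1 had an unadjusted p under 0.05 (0.24% of genes lower and 0.885% higher). T-lineage sums of TLX1 arrays were 15.35 to 15.51.

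Crossed and TLX1 tumours, 6 arrays each, differ by RUNX heterozygosity, by their labelled TLX1 status and by array set, which cannot be told apart. In crossed tumours 10 of 41 members were higher and 6 lower, against 17.9% of genes higher and 36.3% lower, with a median member difference of 0.07 (all genes -0.12). The arrays of the groups did not overlap for 4 of 41 members, against 35.6% of genes. Orc4, an origin recognition subunit, read 10.24 to 10.60 in crossed and 9.18 to 10.10 in TLX1 tumours (0.80 ± 0.13, adjusted p = 0.000179). Rpa3 read 11.21 to 11.60 and 10.44 to 11.03 (0.66 ± 0.12, adjusted p = 0.000353). Fen1 read 10.68 to 11.42 and 12.14 to 13.45 (-1.61 ± 0.24, adjusted p = 8.53e-05) and Tyms 8.12 to 8.59 and 9.34 to 9.75 (-1.18 ± 0.11, adjusted p = 9.37e-07).

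The higher members held 5 of 14 licensing genes, among them Cdc6 (0.77 ± 0.28, adjusted p = 0.0315), Mcm3 (0.70 ± 0.27, adjusted p = 0.0406) and Mcm4 (0.50 ± 0.19, adjusted p = 0.0431), with Rfc3 at 1.02 ± 0.23 (adjusted p = 0.00235) and Rrm2, the small subunit gene of ribonucleotide reductase, at 0.59 ± 0.16 (adjusted p = 0.0061). Orc5 (0.35 ± 0.10), Prim1 (0.45 ± 0.18) and Pola1 (0.54 ± 0.21) completed the list. The other lower members were Pold1, the catalytic subunit gene of polymerase delta (-0.68 ± 0.15, adjusted p = 0.00192), Rfc2 (-0.48 ± 0.12), Gmnn (-0.35 ± 0.14) and Orc2 (-0.31 ± 0.12). Of these Gmnn (0.0225) and Orc2 (0.0626) turned to the opposite sign when each array was centred on its median, a setting that moved the median of all genes from -0.12 to 0.25 and gave 20 members higher and 2 lower. The share of all genes was then 42.2% higher and 22.4% lower.

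Different probe sets of a gene often disagreed. Of 22 members with several probe sets, 9 had probe sets on both sides of 0, among them the called members Fen1, Tyms, Mcm3, Orc2 and Prim1. The second probe set of Fen1 read 0.35 beside -1.61, the others of Tyms -0.17 and 0.22 beside -1.18, and that of Pold1 -0.055 beside -0.68. The probe sets used for 5 members (Mcm2, Mcm3, Mcm7, Fen1 and Rrm2) are of a design that may also bind other transcripts. In the ThPOK contrast 5 of the 22 had probe sets on both sides of 0, in the beta-catenin contrast 5, in the Ikaros Plastic contrast 7 and in that of TLX1 tumours 8. Rfc3 (0.37 by the second), Mcm4 (0.97), Orc4 (0.66 and 0.19) and Rrm2 (0.97 and 0.42) kept their direction in every probe set. Crossed replicates 1, 3 and 5 had member means of -0.36, -0.39 and -0.22 and replicates 2, 4 and 6 of 0.12, 0.20 and 0.11. The number of higher members was 5 without crossed replicate 2, 4 or 6 or TLX1 replicate 5, and 6 without TLX1 replicate 4. The share of all genes in these fits is not given here. Without 1 of the 12 arrays the call was lost in 6 fits each for Cdc6 and Mcm3, in 7 for Gmnn and in 10 for Orc2, and Mcm3 was at 0.43 without TLX1 replicate 4. With the beta-actin ratio in the model 3 members were higher and 5 lower, both below the 12.8% and 31.3% of genes. That ratio was 0.57 to 0.88 on crossed arrays against 0.79 to 2.17 on TLX1 arrays (log2), and their median log2 intensity was 8.56 to 8.66 against 8.91 to 9.07 on TLX1 arrays. T-lineage sums were 14.41 to 15.36 on crossed arrays, with 7 of 9 markers above the array median on every one, against 15.35 to 15.51 on TLX1 arrays, and myeloid sums 14.02 to 15.73 against 13.79 to 14.73 on TLX1 arrays. The part of these markers in the result was not tested.

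**Figure D4:**
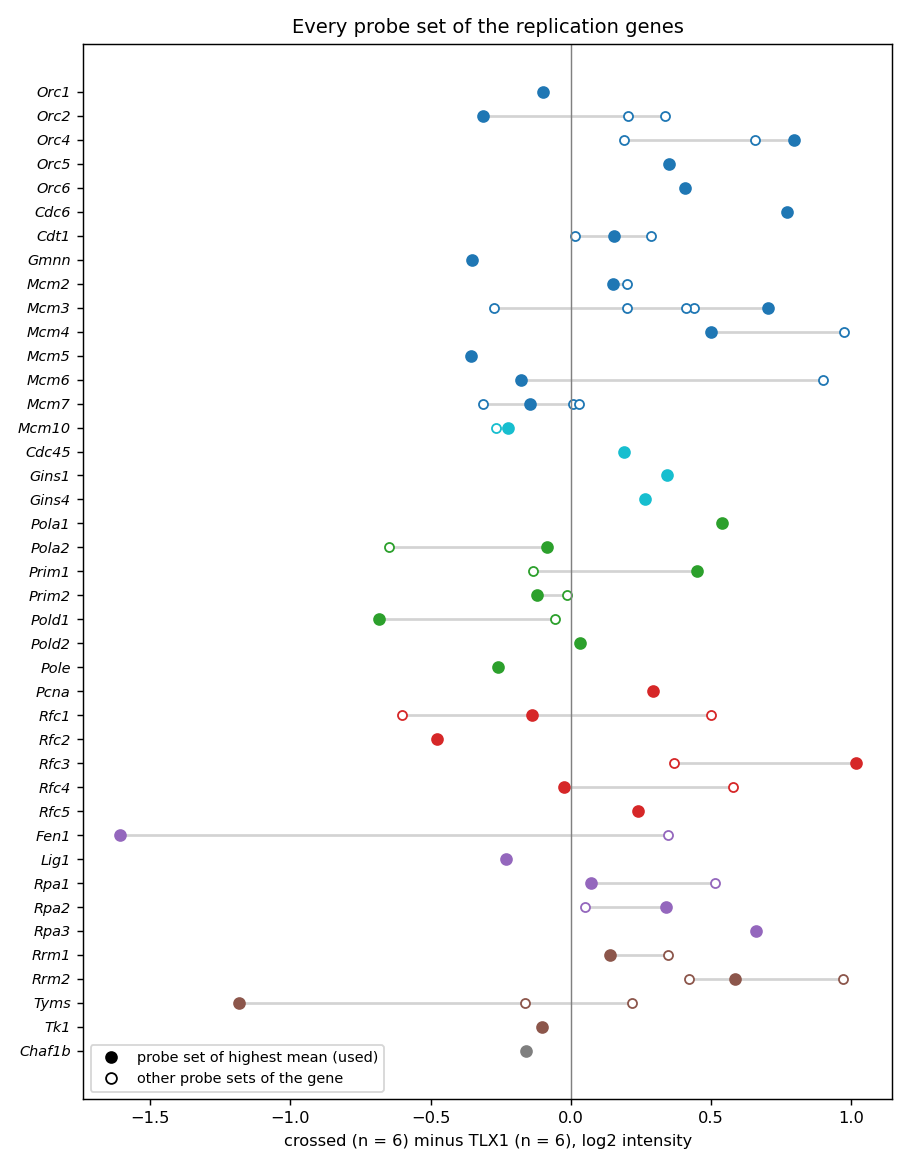
Crossed minus TLX1 difference (x axis, log2, 6 arrays each) for all 74 probe sets of the 41 replication genes, with filled points for the probe set used and open points for the others. The grey bars of Fen1 and Tyms span from -1.61 to 0.35 and from -1.18 to 0.22, while those of Orc4, Rfc3, Mcm4 and Rrm2 stay above 0.

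Over the 38 arrays of the largest set the members went together. The median Pearson r over all pairs of members was 0.575 (quartiles 0.438 and 0.701), beside -0.001 (-0.232 and 0.245) over all pairs of genes kept. Arrays of a background and array-wide features are shared by all genes, and no p is given. Gins1 was closest to the mean of the other 40 members (r = 0.929), followed by Cdc6 (0.919), Rpa2 (0.905), Prim1 (0.901) and Mcm5 (0.898). After the mean of each background was subtracted these were 0.936, 0.876, 0.840, 0.910 and 0.924. Much of the spread left there lies in a few arrays. Ikaros Plastic replicates 1 and 2 had member means of 0.12 and -0.84 around a background mean of -0.31. Cdkn2a knockout replicate 8 read -0.43 in a background of mean 0.06. The r without these arrays was not computed, so it is not known how far members moved together in other tumours of a background. Tyms ran apart at -0.371, or -0.029 within backgrounds, with its probe sets of mean log2 8.15 and 7.15 correlating at 0.641 and -0.231 with the one used. Rpa1 (0.414), Orc4 (0.449), Pold1 (0.491) and Tk1 (0.538) were the next lowest. Within backgrounds the value of Rpa1 was 0.709 and that of Pold1 0.690, while Orc4 stayed at 0.404.

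**Figure D5:**
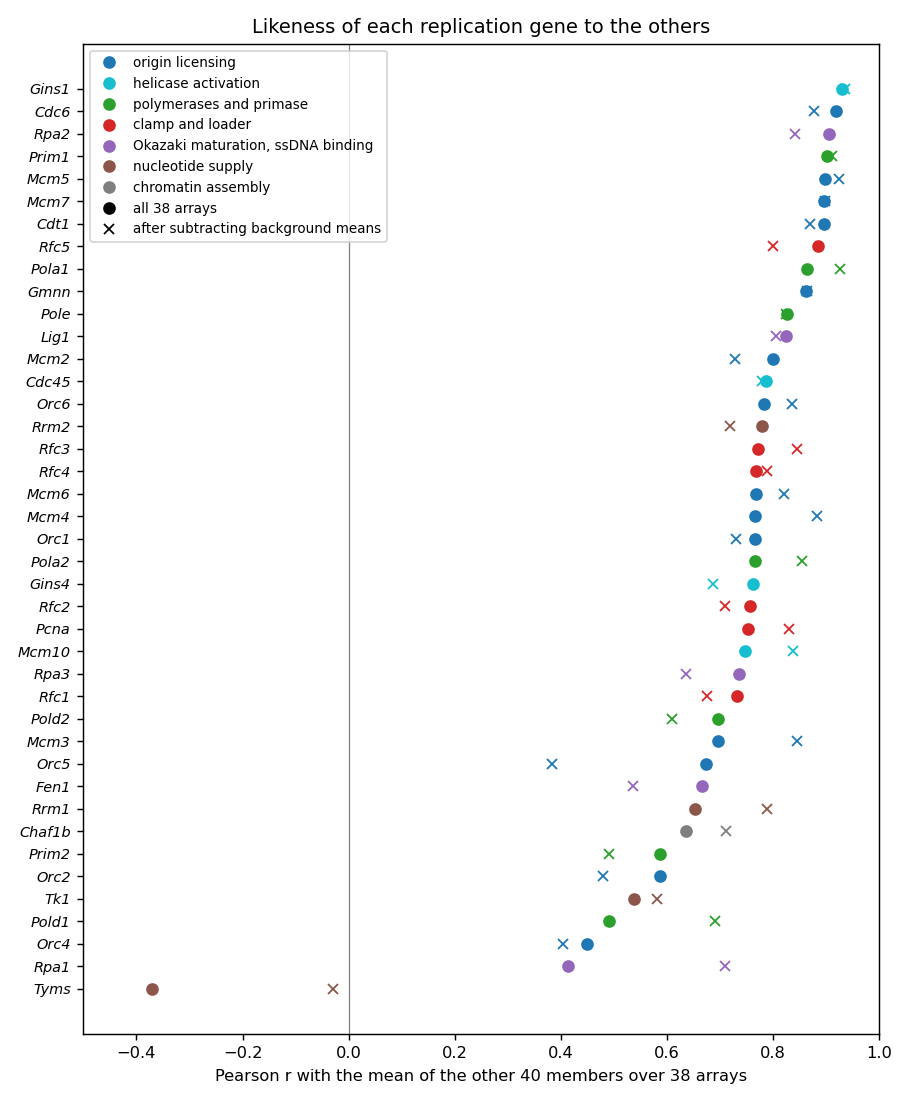
Pearson r of each replication gene with the mean of the other 40 over 38 arrays (x axis), with points for the values as they are and crosses after subtracting background means. Tyms lies lowest at -0.371, the next points are Rpa1 at 0.414 and Orc4 at 0.449, and Gins1, Cdc6 and Rpa2 are highest.

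Outside the members and the other replication genes listed, the genes most like the members' mean over the same 38 arrays were Exo1 (r = 0.933), a DNA repair nuclease, Chek1 (0.930), the kinase gene of the replication checkpoint, Nup133 (0.909), Dtl (0.905), the adaptor that targets Cdt1 for destruction, Nup37 (0.903), Brca1 (0.881), Hspa14 (0.880), the histone chaperone gene Nasp (0.871), and Ncapg (0.870) and Kif2c (0.863), genes of chromosome condensation and the spindle. The lowest were Plpp2 (-0.878), Dcxr (-0.826), Cd9 (-0.818), Tnfrsf11a (-0.816) and Atp6ap1 (-0.814). These r values too carry what the arrays share.

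A second list of 43 replication and G1/S genes that are no members, such as the kinase genes Cdc7 and Dbf4, the fork protection genes Timeless and Tipin and the E2F genes themselves, had 33 measured and 32 tested. In ThPOK tumours 10 of 32 were lower and 1 higher, against 12% and 23.1% of all genes. They were led by Cdc7 (-1.04 ± 0.26), Dck (-0.94 ± 0.25), a nucleoside salvage kinase, Cdk2 (-0.86 ± 0.15), the S-phase kinase, and Donson (-0.80 ± 0.15), and the higher gene was E2f1 (0.38 ± 0.09). In beta-catenin tumours 8 were lower (15.7% of all genes), led by the nuclease gene Dna2 (-0.98 ± 0.19), Dtymk (-0.86 ± 0.16), which acts after Tk1 in making thymidine triphosphate, Tipin (-0.64 ± 0.14) and Dut (-0.56 ± 0.15). There 6 were higher (26.2% of all genes), led by the cyclin gene Ccne1 (1.31 ± 0.26), Cdk2 (0.40 ± 0.15), Pold4 (0.40 ± 0.14) and Recql4 (0.40 ± 0.07). In Ikaros Plastic tumours 12 were lower (14.9% of all genes), led by Dck (-1.03 ± 0.25), Dbf4 (-0.92 ± 0.19), Cdc7 (-0.81 ± 0.26) and Timeless (-0.69 ± 0.20), and 2 were higher (Mcmbp, 0.24 ± 0.07, and Recql4, 0.19 ± 0.07), against 25.1% of all genes.

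Of the same list 4 were higher and 3 lower in Cdkn2a knockout tumours (32.7% and 18.7% of all genes), 4 were lower in LMO1 tumours (18.1%) and none passed in limma in the other 7 backgrounds of the set, where 0 to 5 of the 32 had an unadjusted p under 0.05.

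In the direct contrast of ThPOK with beta-catenin tumours Cdk2 was 1.16 ± 0.20 lower (adjusted p = 0.00012) and Dtymk 0.85 ± 0.21 higher (adjusted p = 0.00456), the latter in the same direction as Tk1. In all, 5 of the 32 were lower and 3 higher, shares near the 13.5% and 11.7% of all genes. TLX1 tumours had 5 lower and 1 higher (13.2% and 18.8% of all genes). They were led by Donson (-0.92 ± 0.18), Ccne2 (-0.67 ± 0.24), Asf1a (-0.59 ± 0.17) and Mcmbp (-0.57 ± 0.11), and the higher one was Chtf18 (0.57 ± 0.15), a subunit of an alternative clamp loader. Crossed against TLX1 tumours had 13 higher and 5 lower (17.9% and 36.3% of all genes), led by Ccne2 (1.17 ± 0.27), Donson (0.85 ± 0.29), Uhrf1 (0.85 ± 0.19) and Dna2 (0.77 ± 0.19) in one direction and E2f1 (-0.95 ± 0.12), E2f3 (-0.61 ± 0.11), Pole3 (-0.41 ± 0.13) and Chtf18 (-0.34 ± 0.13) in the other. Across the 38 arrays E2f1 had an r of -0.596 with the members' mean, and Timeless one of 0.847.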

How the data were processed

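Each of 53 samples was 1 Affymetrix array of biotin-labelled cRNA from Trizol-extracted total RNA, per the labels' protocols. The authors deposited normalized intensity values per probe set on a linear scale, and their summarization and normalization are not given in the sources used here. Their log2 was taken here. The highest Pearson r between any 2 arrays was 0.988, and array medians ran from 377 to 590. Of 22690 probe sets 20393 name 1 gene symbol and 691 several, 1606 none that could be used, and 20364 were matched by Entrez identifier to current symbols of assembly GRCm38.p6. Each gene was read from its probe set of highest mean, which for members with several decides among disagreeing probe sets. Genes that exceeded the median of the array on 3 or more arrays were tested with limma 3.58.1 (R 4.3.3; lmFit and eBayes, two-sided, Benjamini-Hochberg adjustment, threshold 0.05). Unless stated otherwise, adjusted p-values are limma's. Counts of genes with an unadjusted p under 0.05 stand without the share of all genes, which was not counted. Arrays carry no read depth, so precision is limited by their number. Array sets came from clustering 27 bacterial control probe sets into 4.

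Summed marker levels are log2 of summed intensities. Figures and summaries used Python 3.11.15, pandas 2.3.3 and matplotlib 3.10.9. The test was checked on simulated data, with 200 genes among 9157 changed by 1 on the log2 scale. The share recovered was 90% for the largest set, 96.5% for TLX1 tumours and 83.5% for crossed tumours. False calls made up 3.74%, 3.98% and 6.7% of the calls there, the last above the threshold. The largest set has a single share, with the change put into Ikaros Plastic tumours, so recovery in its contrasts of backgrounds with 2 arrays is not known. Each gene was simulated with the same spread in every group. The real Ikaros Plastic arrays differed widely, so the shares recovered and false do not carry over to them. The real TLX1 comparison pools backgrounds that differ from each other, so its recovery may be lower than simulated. The members and lists were chosen with earlier results of these data known. In each comparison the called members of largest difference, up to 6 in each direction, were to be named, with all members accounted for by role. Alternatives changed the filter, the probe set rule, the normalization, the test, covariates, blocks and the arrays used.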

Additional observations from a re-analysis of the deposited data

Results flagged for a closer look

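Of 126 groups of values tested for a sample far from the rest, 16 had one. Chance flags about 1 in 20 of independent groups. Members went together (median pairwise r 0.575 in the largest set), so the 16 cannot be set against that rate. Only backgrounds of 6 or 9 arrays were tested. The low arrays p53 knockout replicate 2 (member mean -1.15) and Ikaros Plastic replicate 2 (-0.84) could therefore not be flagged. All 16 flags belonged to 2 arrays. In the 9 Cdkn2a knockout tumours replicate 8, the array titled for Pim1 and Ccnd3, had a member mean of -0.428 (next lowest -0.0023). It was also flagged as far below the rest for 10 members: Cdc6 at 9.68, Gmnn at 10.52, Gins1 at 9.63, Pola1 at 9.33, Prim1 at 10.70, Pcna at 12.96, Rfc3 at 9.04, Rfc4 at 10.37, Rrm1 at 10.65 and Rrm2 at 11.54. The next lowest arrays read 10.58 for Cdc6 and 12.31 for Rrm2. Its T-lineage sum was 15.13 and its B-cell sum 12.41, the latter against 11.10 to 11.87 in the other 8 arrays.

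In the 6 TLX1 tumours replicate 4 was flagged as far below the rest for Mcm3 at 9.65, Mcm6 at 12.18, Gins1 at 9.68, Lig1 at 11.35 and Rpa1 at 11.89. The next lowest arrays read 11.12 for Mcm3 and 12.26 for Rpa1. Its T-lineage sum was 15.43, inside the range of the other TLX1 arrays.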

How the results depend on the processing

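Each array's absence, in turn, gave these ranges of member counts: 29 to 38 across the largest set, 34 to 40 across all backgrounds, 7 to 17 higher and 60 to 88 lower over the 12 contrasts, 10 to 27 lower in ThPOK, 8 to 25 in beta-catenin and 2 to 38 in Ikaros Plastic tumours, 0 to 2 higher and 2 to 13 lower in TLX1 tumours, and 5 to 11 higher and 4 to 6 lower in crossed tumours. Over the 12 contrasts, 7 were higher without E2A knockout replicate 2 or Cdkn2a knockout replicate 4 or 5, and 17 without Ikaros Plastic replicate 1. Apart from the shares given above, the share of all genes in these fits is not given.

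With arrays centred on their median, 6 were higher over the 12 contrasts, 30 lower in beta-catenin, 20 higher and 2 lower in crossed tumours, the member mean was 0.32 in Olig with LMO1, 0.20 in crossed and -0.41 in beta-catenin tumours and the median pairwise r was 0.715. Fitted on all 53 arrays, 5 were higher and 37 lower over the contrasts, with 9 lower in ThPOK, 10 in beta-catenin and 14 in Ikaros Plastic tumours. With the beta-actin ratio in the model, 48 were lower over the contrasts. There 17 were lower in ThPOK (11.2% of genes), 9 in beta-catenin (10.6%) and 16 in Ikaros Plastic tumours (12.2%). In TLX1 tumours 0 were higher and 0 lower (limma, with 0.885% and 0.24% of genes). In crossed tumours 3 were higher (12.8%). With Ikaros Plastic replicate 2 and Cdkn2a knockout replicate 8 left out, chosen after seeing the data, 30 were higher over the contrasts and 8 lower in Ikaros Plastic tumours.

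The probe set of largest interquartile range gave 0 higher and 10 lower in TLX1 tumours (19.8% and 18.1% of genes). It gave 3 lower in crossed tumours (37.2% of genes) and a Pokemon mean of 0.28. Fen1 was then at -0.23 in TLX1 and 0.35 in crossed tumours, with Orc2 at 0.34 in the latter. The mean of all probe sets gave 0 higher and 9 lower in TLX1 tumours (18.4% and 15.2% of genes) and Orc2 at 0.0759 in crossed tumours. Centring turned Gmnn to 0.0225 and Orc2 to 0.0626. The mean of the 13 background means gave 2 higher and 12 lower in TLX1 tumours (26.4% and 20% of genes).

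Against p53 arrays of their own set alone, TLX1 tumours had 0 higher and 0 lower by limma, and with array set as a block 0 lower. In both, Fen1 was -0.50, Rfc3 0.33, Rfc5 0.37 and Rpa3 0.52. The block without p53 knockout replicate 2, chosen after seeing the data, gave 0 higher and 0 lower and Fen1 at -0.48. The cause was not tested.

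With the replicate number as a block, 5 members were higher and 5 lower in crossed tumours, and in the largest set without Cdkn2a and rag E2A knockout arrays 5 were higher over the contrasts, with 18 lower in ThPOK, 18 in beta-catenin and 22 in Ikaros Plastic tumours. The numbers do not pair the samples: the deviations of same-numbered crossed and TLX1 arrays correlated at -0.186 to 0.148, and in the largest set at a median of -0.023. Of 610 alternatives for 59 named values, 515 kept the direction and the call, 80 kept the direction and lost the call and 15 reversed. Without 1 array 28 of the 59 lost the call and none reversed.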
